A study of Homo sapiens with 18 samples.

Results

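The SOX genes studied here are 6 members of the family of transcription factors that share the HMG box, SOX4, SOX7, SOX9, SOX12, SOX13 and SOX15. They were found by gene ID among 23604 genes listed in the RNA-Seq files, and all 6 were among the 16948 genes with enough reads to be tested. The series followed MCF10A-Er-Src, a line of non-tumorigenic human breast epithelial cells that carries a v-Src oncoprotein fused to the hormone-binding part of the oestrogen receptor, so that tamoxifen turns the kinase on and transforms the cells. NT cells were kept without tamoxifen, TAM cells had been transformed by it, and both then spent 4 h either in DMSO or in triptolide (TPL, dose as the label TPL-125nM), a drug that inactivates XPB, the subunit of TFIIH that opens DNA for RNA polymerase II (RNAPII). The 8 RNA-Seq libraries form the groups NT, NT+TPL, TAM and TAM+TPL with 2 biological replicates each, and RNAPII ChIP-Seq of the same 4 conditions gave 1 list of peaks per condition. All groups are cultures of this 1 line and all carry the Er-Src fusion, so an effect of tamoxifen itself and an effect of the activated kinase cannot be told apart.

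SOX proteins bind the minor groove of DNA at short sites around ACAAT, bend the helix there and act with partner factors that differ between tissues. The family is divided into groups by the similarity of the HMG box: SOX4 and SOX12 belong to group C, SOX7 to group F, SOX9 to group E, SOX13 to group D and SOX15 to group G. In epithelia, SOX4 is known as a target of TGF-β and a driver of epithelial to mesenchymal transition, SOX9 as a factor of mammary stem and progenitor cells that acts with SNAI2, and SOX7 and SOX13 as restraints on transcription driven by β-catenin and TCF factors.

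Total expected counts lay between 7461309 and 8349448 per library. All 7 epithelial markers looked for (KRT5, KRT14, KRT17, CDH1, EPCAM, ITGB4 and TP63) were detected, with a summed FPKM of 1694 to 14635 per library. Most of that sum came from KRT5 and KRT17, and TP63 had at most 0.89 FPKM in the TPL libraries. The summed FPKM was 4.19 to 12.8 for 4 fibroblast markers, 7.19 to 19.9 for 3 leukocyte markers and 0.46 to 1.69 for 2 endothelial markers, of which CDH5 was not listed in any library. FPKM, which divide the reads of a gene by its transcript length and the library total, are used for levels, and log2 fold changes come from edgeR's quasi-likelihood test on the rounded expected counts with Benjamini-Hochberg adjustment over all tested genes. A gene rose or fell where the adjusted p reached 0.05 or less. Strict calls, after the methods of the study, had to reach 0.001 with a log2 fold change of 1.2 or more in either direction.

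In untreated NT cells SOX15 was the most abundant of the 6, with 79.7 and 72.4 FPKM in replicates 1 and 2. SOX4 followed with 28.3 and 24.6, SOX12 with 19.6 and 18.2, SOX7 with 10.8 and 9.82, SOX9 with 8.90 and 9.72 and SOX13 with 8.72 and 9.03 FPKM. Each of these genes lay apart from the next one in the order, except SOX9 and SOX13, whose ranges overlapped. In TAM cells SOX7 stood above SOX12 and SOX9 came last, and the ranges of SOX12 and SOX13 overlapped. With TPL the order changed below SOX15: SOX13 was second in both NT+TPL and TAM+TPL, followed by SOX4 and SOX9. In NT+TPL the ranges of SOX4, SOX9, SOX12 and SOX7 overlapped from each gene to the next, while in TAM+TPL all 6 lay apart.

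**Figure D1:**
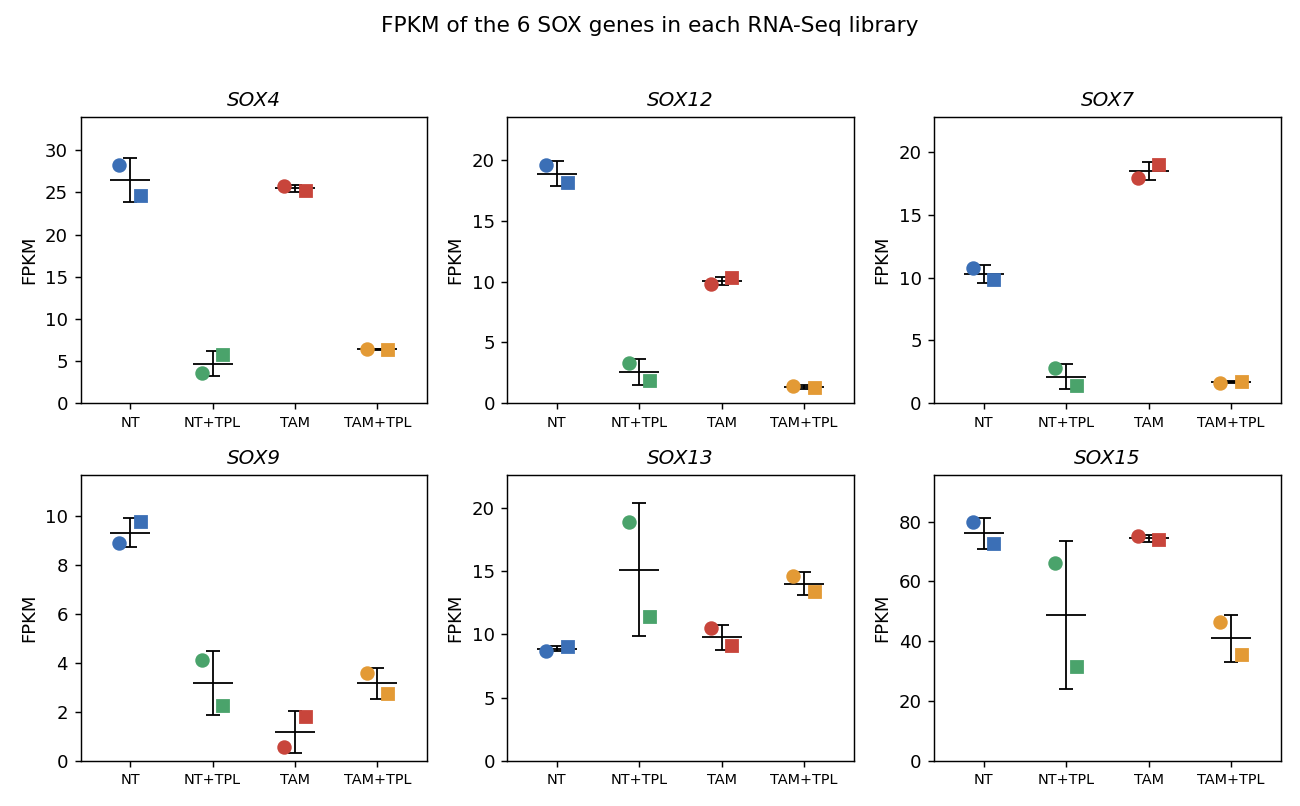
FPKM of each SOX gene (vertical axes, linear from 0, a scale per gene) in the 4 groups, with replicate 1 as circles, replicate 2 as squares, and the mean and SD as black bars (n = 2). SOX4, SOX12 and SOX7 are low in all 4 TPL libraries, SOX13 is higher with TPL, and SOX9 is low in TAM.

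The promoters of SOX4, SOX12 and SOX13 are shown, which differ in base composition. RNAPII peaks described further on lay in or beside them. SOX7, SOX9 and SOX15, whose promoters are not shown, had peaks over their start sites as well. Each run covers 250 bases before and 50 bases from the transcription start site (TSS) onwards, 5′ to 3′ on the plus strand, taken from RefSeq (GRCh38.p14) and placed on GRCh37 by a single exact match at chr6:21593732-21594031, chr20:305946-306245 and chr1:204041993-204042292. Capitals mark matches on either strand to the CCAAT box (CCAAT) and the GC box (GGGCGG), which do not overlap each other.
SOX4: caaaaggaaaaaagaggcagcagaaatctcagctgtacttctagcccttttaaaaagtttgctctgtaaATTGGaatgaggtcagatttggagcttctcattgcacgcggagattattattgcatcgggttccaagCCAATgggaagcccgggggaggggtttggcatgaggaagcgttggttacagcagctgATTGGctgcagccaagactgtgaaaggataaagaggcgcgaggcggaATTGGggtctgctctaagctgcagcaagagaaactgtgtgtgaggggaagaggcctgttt
SOX12: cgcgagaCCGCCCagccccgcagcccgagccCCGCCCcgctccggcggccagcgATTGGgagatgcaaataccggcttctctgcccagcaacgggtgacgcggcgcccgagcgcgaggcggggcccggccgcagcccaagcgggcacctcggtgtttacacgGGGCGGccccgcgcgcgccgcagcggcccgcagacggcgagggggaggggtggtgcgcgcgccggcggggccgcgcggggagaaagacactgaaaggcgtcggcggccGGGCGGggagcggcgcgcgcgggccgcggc
SOX13: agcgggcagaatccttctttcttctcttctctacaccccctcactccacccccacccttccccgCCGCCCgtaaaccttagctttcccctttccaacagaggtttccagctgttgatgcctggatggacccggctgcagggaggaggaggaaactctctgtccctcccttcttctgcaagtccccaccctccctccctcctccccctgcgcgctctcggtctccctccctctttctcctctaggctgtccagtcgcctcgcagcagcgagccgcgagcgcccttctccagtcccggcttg

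The SOX4 promoter held 4 CCAAT boxes, which began at bases -181, -114, -57 and -10 with the TSS as base 1, and no GC box, at a GC content of 49.3%. The SOX12 promoter held 1 CCAAT box at -196 and 4 GC boxes at -243, -219, -88 and 21, and its GC content was 80.3%. The SOX13 promoter held a single GC box at -186, no CCAAT box and 62.7% GC. Over 35093 RefSeq promoters of the same 300 bases the median GC content was 58.7%, 34.6% held a CCAAT box and 44.9% a GC box. Neither TATAAA, held by 11.5% of those promoters, nor the SOX core ACAAT, held by 27.4%, was found on either strand of the 3 windows. The matches describe letters and not bound sites.

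The RNA of SOX4, SOX12 and SOX7 was lower with TPL in both kinds of cells. In NT cells 4 of the 6 genes fell (SOX12, SOX4, SOX7 and SOX9), 1 rose (SOX13) and SOX15 did not pass the test. In TAM cells 3 fell (SOX7, SOX12 and SOX4) and none rose. Over all tested genes 37% passed the same test in NT cells (19.8% fell and 17.2% rose) and 33% in TAM cells (18.6% fell and 14.3% rose), and 14.2% fell in both, against 3 of the 6 SOX genes. The median log2 fold change of the 6 was -1.94 in NT and -1.48 in TAM cells, where the median of all tested genes was 0.09 and 0.05. RNA-Seq counts are shares of a library, so a change in the total RNA of a cell was not measured, and fewer cells of a type and less RNA per cell cannot be told apart.

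**Figure D2:**
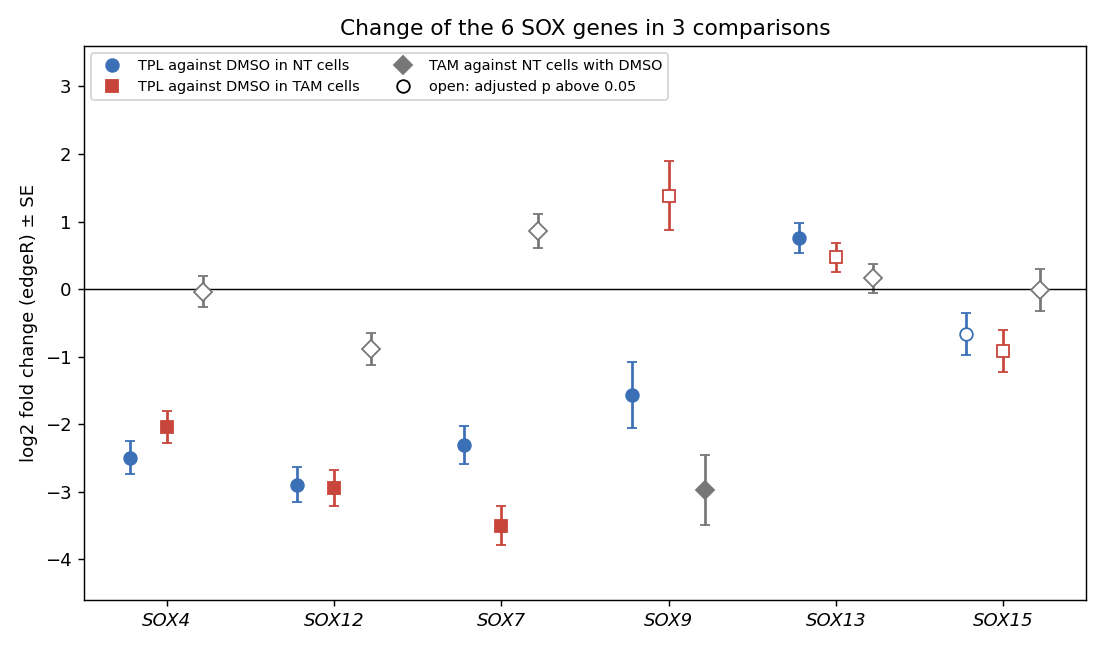
Log2 fold change with its SE (vertical axis, edgeR, n = 2 per group) of each SOX gene for TPL in NT cells (circles), TPL in TAM cells (squares) and TAM against NT cells with DMSO (diamonds). Filled symbols have an adjusted p of at most 0.05, which holds for 5, 3 and 1 of the 6 genes.

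SOX4 (gene ID 6659, chr6:21593982-21598850 on hg19, plus strand) had 28.3 and 24.6 FPKM in NT against 3.62 and 5.74 in NT+TPL, and 25.8 and 25.2 FPKM in TAM against 6.42 and 6.33 in TAM+TPL. Its TPL libraries lay far below the DMSO libraries in both states, and the NT and TAM libraries with DMSO overlapped. The log2 fold change with TPL was -2.50 (SE 0.241, adjusted p = 0.000669) in NT cells, a 5.65-fold fall and a strict call, and -2.05 (SE 0.236, adjusted p = 0.00136) in TAM cells, a 4.13-fold fall that misses the strict threshold on p. Between TAM and NT cells with DMSO it was -0.04 (SE 0.223, adjusted p = 0.965).

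SOX12 (gene ID 6666, chr20:306196-310868, plus strand), the group C relative of SOX4, had 19.6 and 18.2 FPKM in NT against 3.32 and 1.79 in NT+TPL, and 9.82 and 10.3 FPKM in TAM against 1.45 and 1.25 in TAM+TPL. No library of one group reached those of another. TPL changed it by -2.90 (SE 0.258, adjusted p = 0.000525) in NT and by -2.95 (SE 0.269, adjusted p = 0.000641) in TAM cells on the log2 scale, falls of 7.46-fold and 7.71-fold, and both were strict calls. Unlike SOX4 it was also lower in TAM than in NT cells with DMSO in both replicates, with -0.89 on the log2 scale (SE 0.236), but the adjusted p of 0.0782 does not pass 0.05.

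SOX7 (gene ID 83595, chr8:10581278-10588021, minus strand), which is best known from endothelial development, had 10.8 and 9.82 FPKM in NT against 2.80 and 1.4 in NT+TPL, and 18 and 19 FPKM in TAM against 1.63 and 1.73 in TAM+TPL. It was highest in TAM cells without TPL, and with TPL the groups from NT and TAM cells overlapped. The log2 fold change with TPL was -2.31 (SE 0.280, adjusted p = 0.00143) in NT cells and -3.50 (SE 0.291, adjusted p = 0.000496) in TAM cells, a 4.95-fold and an 11.3-fold fall, of which the latter was a strict call. The difference between these effects was -1.2 (SE 0.390, unadjusted p = 0.0182), and the adjusted p of that interaction was 0.361, in a test that 0.165% of all genes passed. Between TAM and NT cells with DMSO the log2 fold change was 0.86 (SE 0.255, adjusted p = 0.110). The expected counts of SOX7 were not whole numbers in any library (289.2 in NT replicate 1), so RSEM had divided reads between it and another entry, and an annotated form of its neighbour PINX1 overlaps it.

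SOX4, SOX12 and SOX7 stayed past an adjusted p of 0.05 in both TPL comparisons under every alternative and with every library left out. The strict calls, 2 of 6 genes in each state, compare with 3.93% of all genes in NT and 2.88% in TAM cells. Which of these 3 genes were strict calls depended on the fit. In edgeR SOX4 in NT cells missed 0.001 with upper quartile normalization (adjusted p = 0.00101) and with the replicate block (0.00256). With DESeq2 SOX4 in TAM cells (adjusted p = 2.22e-19) and SOX7 in NT cells (1.09e-14) reached both strict thresholds. In all 6 genes the FPKM of the TPL and DMSO libraries did not overlap, in either state, which was so for 69.1% of all tested genes in NT and 74.7% in TAM cells.

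SOX13 (gene ID 9580, chr1:204042243-204096871, plus strand), a group D factor that binds TCF proteins, went the other way. It had 8.72 and 9.03 FPKM in NT against 18.9 and 11.4 in NT+TPL, and 10.5 and 9.08 FPKM in TAM against 14.6 and 13.4 in TAM+TPL. Every TPL library lay above every DMSO library. In NT cells the log2 fold change was 0.75 (SE 0.22, adjusted p = 0.0345), a 1.69-fold rise, and in TAM cells it was 0.47 (SE 0.219, adjusted p = 0.141), which does not pass. The rise in NT cells did not pass with any library left out other than NT+TPL replicate 2. Without NT+TPL replicate 1 the value was 0.39 (adjusted p = 0.103), and it was 0.38 (adjusted p = 0.235) when libraries were scaled to equal GAPDH, which shifts the median of all genes to -0.26.

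SOX15 (gene ID 6665, chr17:7491496-7493412, minus strand), the only member of group G, had 79.7 and 72.4 FPKM in NT against 66.2 and 31.3 in NT+TPL, and 75.3 and 73.7 FPKM in TAM against 46.5 and 35.4 in TAM+TPL. The TPL libraries were lower in both states, but the NT+TPL replicates differed more from each other than replicate 1 did from the NT libraries. The log2 fold change was -0.66 (SE 0.308, adjusted p = 0.133) in NT and -0.91 (SE 0.310, adjusted p = 0.0611) in TAM cells, and neither passes 0.05 in this fit. DESeq2 called the value in TAM cells (-0.89, adjusted p = 0.0101). In edgeR that value also passed with GAPDH scaling (0.0302), at least 10 counts in every library (0.0319), the replicate block (0.0423) and only the 2 groups compared (0.0103). It did not pass with upper quartile normalization (0.132) or limma. The value in NT cells passed with GAPDH scaling (-1.04, adjusted p = 0.0249) but under no other alternative. In NT cells it was -1.25 without NT+TPL replicate 1 (adjusted p = 0.00747) and -0.23 without NT+TPL replicate 2 (adjusted p = 0.428).

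SOX9 (gene ID 6662, chr17:70117161-70122557, plus strand) was the only member with an adjusted p of 0.05 or less between TAM and NT cells with DMSO in the edgeR fit to all 4 groups, while other fits also passed SOX12 or SOX7. It had 8.90 and 9.72 FPKM in NT against 4.10 and 2.24 in NT+TPL, and 0.57 and 1.77 FPKM in TAM against 3.6 and 2.72 in TAM+TPL. The TAM libraries, with 19 and 59 expected counts, were the lowest of the 8, and the TPL libraries of both states covered a common range between NT and TAM. With DMSO the log2 fold change of TAM against NT was -2.97 (SE 0.520, adjusted p = 0.0188), a 7.85-fold difference, where 6.84% of all genes passed the test and 3.39% fell. It was -3.04 (adjusted p = 0.0791) and -2.91 (adjusted p = 0.0920) without either NT replicate, -2.38 (adjusted p = 0.0555) without TAM replicate 1, and -2.94 (adjusted p = 0.0507) without TAM+TPL replicate 1. Without TAM replicate 2 it was -4.02 (adjusted p = 0.0191). TPL changed SOX9 by -1.57 (SE 0.484, adjusted p = 0.0414) in NT cells and by 1.38 (SE 0.509, adjusted p = 0.0763) in TAM cells. With edgeR the value in NT cells did not pass under upper quartile normalization (adjusted p = 0.0624) or the replicate block (0.0734). That in TAM cells passed with DESeq2 (adjusted p = 0.0114). It also passed in edgeR with upper quartile normalization (0.0462) and at least 10 counts in every library (0.022), but under no other alternative. The value in NT cells was -1.21 without NT+TPL replicate 2 (adjusted p = 0.166), and it passed when NT+TPL replicate 1 or a TAM replicate was left out but not without any of the other libraries, while that in TAM cells was 0.78 without TAM replicate 1 (adjusted p = 0.230) and 2.41 without TAM replicate 2 (adjusted p = 0.0235). Both TPL comparisons share their DMSO libraries with the comparison between the states.

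For the other 5 genes the difference between TAM and NT cells with DMSO did not pass in the edgeR fit to all 4 groups, but that of SOX12 and SOX7 did in other fits. DESeq2 called SOX9, SOX12 (log2 fold change -0.87, adjusted p = 0.00426) and SOX7 (0.88, adjusted p = 0.00686). In edgeR both passed when at least 10 counts were asked of every library (adjusted p = 0.0284 for SOX12 and 0.0478 for SOX7), when only the groups compared were fitted (0.0171 and 0.0188) and without either NT+TPL replicate. SOX12 also passed with scaling to equal GAPDH, at a log2 fold change of -1.36 (adjusted p = 0.0130). That scaling shifts the median of all genes in this comparison from -0.03 to -0.50. In 4 of the 6 genes the FPKM of NT and TAM libraries did not overlap, against 52.7% of all tested genes. Between TAM+TPL and NT+TPL none of the 6 passed the test in the edgeR fit to all 4 groups, where 7.03% of all genes did. SOX12 had an unadjusted p under 0.05 there and was called by DESeq2 (log2 fold change -0.91, adjusted p = 0.0221). Its edgeR value was -0.94 (SE 0.272, adjusted p = 0.0969), and the other 5 lay between -0.34 and 0.41. The FPKM of 2 of the 6 genes, SOX4 and SOX12, did not overlap between the TPL groups, as for 47.6% of all genes.

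The size of the TPL effect in TAM cells minus that in NT cells was 0.45 for SOX4, -0.05 for SOX12, -0.29 for SOX13 and -0.25 for SOX15 on the log2 scale, with SEs of 0.310 to 0.435 and adjusted p values of 0.657 to 0.993. With the values of SOX7 and SOX9 (2.95, SE 0.702, adjusted p = 0.223), 0 of the 6 passed in edgeR. At an unadjusted p under 0.05 there were 2, SOX7 and SOX9, and DESeq2 called 1, SOX9.

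Added together, the 6 genes had 156 and 144 FPKM in NT against 98.9 and 53.9 in NT+TPL, and 140 and 139 FPKM in TAM against 74.2 and 60.8 in TAM+TPL. The sum was thus lower in each TPL library than in each DMSO library, and NT and TAM differed little. SOX15 made up 50.4 to 51.1% of the sum in NT, 53.0 to 53.8% in TAM and 58.1 to 67.0% in the TPL libraries. The share of SOX13 was 5.59 to 7.49% with DMSO and 19.1 to 22% with TPL. There were 0.308 to 0.406 FPKM of SOX13 per FPKM of SOX4 in the DMSO libraries and 1.99 to 5.21 in the TPL libraries. For SOX15 over SOX12 the ratio lay at 3.99 to 4.06 in NT and 7.17 to 7.67 in TAM, and with TPL at 17.5 to 19.9 and 28.3 to 32.1 in that order. A ratio within a library does not depend on its scaling.

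**Figure D3:**
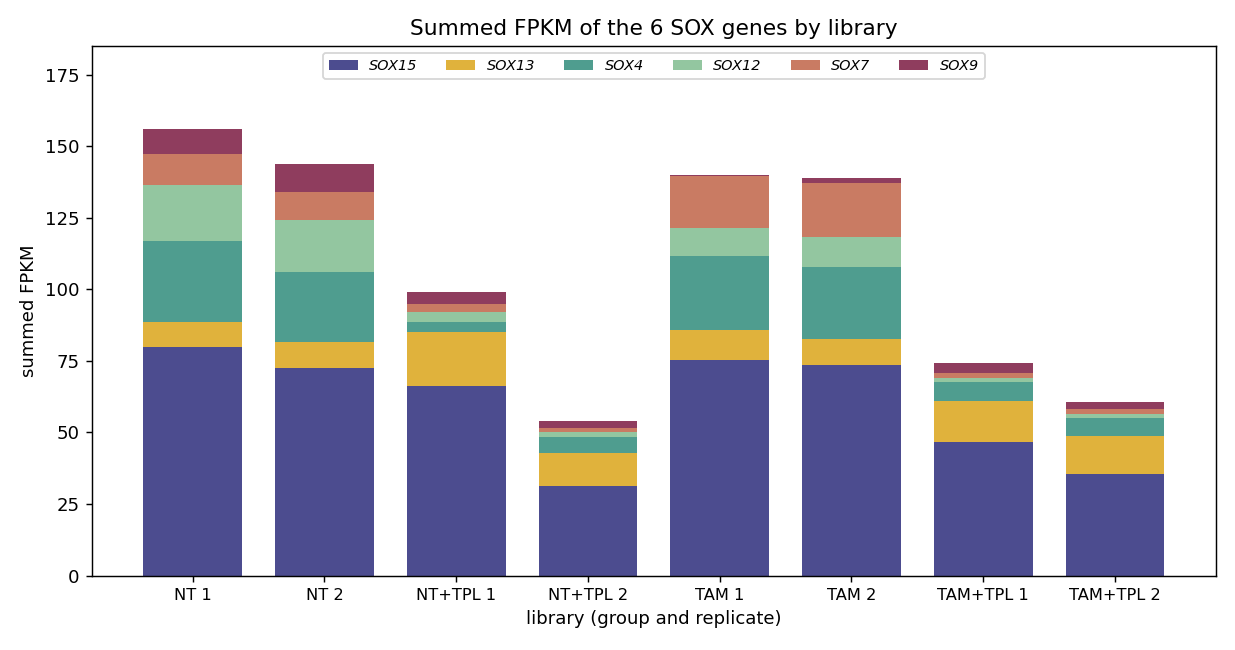
Summed FPKM of the 6 SOX genes (vertical axis, linear from 0) in each of the 8 libraries, divided by gene. The bars of the DMSO libraries reach 139 to 156 FPKM and those of the TPL libraries 53.9 to 98.9, with SOX15 the largest part of each bar.

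Of 13 other SOX genes looked for, 5 (SOX1, SOX3, SOX11, SOX14 and SOX17) were not listed in any library. SOX5, SOX8, SOX10, SOX18, SOX21 and SOX30 were listed with at most 3, 1, 2, 5, 7 and 15 expected counts in a library and were too low to be tested. SOX2, the pluripotency factor of group B, and SOX6, a group D relative of SOX13, were tested with at most 29 and 19 counts, and neither passed 0.05 in the TPL comparisons or between NT and TAM. Among the close relatives of the 6, only SOX6 thus had enough reads for a test.

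RNAPII peaks were read from 4 lists of peaks at TSSs on hg19, 1 per condition, that give positions without height or read counts. A SOX gene counted as occupied where an annotated TSS (GENCODE release 44 on build 37) lay within a peak, and positions are given relative to the TSS of the canonical transcript, counted as 0. The peak names carry replicate 1 in every list, with a cutoff of 0.02 in 3 lists and a q of 0.1 in the TAM list. Whether the second ChIP replicates entered them is not given, the TAM threshold differs, and no test was made of 1 list per condition. By this rule 4 of the 6 SOX genes were occupied in NT (SOX12, SOX7, SOX9 and SOX13), 3 in NT+TPL (SOX4, SOX9 and SOX15), 3 in TAM (SOX4, SOX7 and SOX13) and 4 in TAM+TPL (SOX4, SOX9, SOX13 and SOX15). Of 20163 protein-coding genes, 50.2, 40.5, 45.7 and 39.5% were occupied in these lists.

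**Figure D4:**
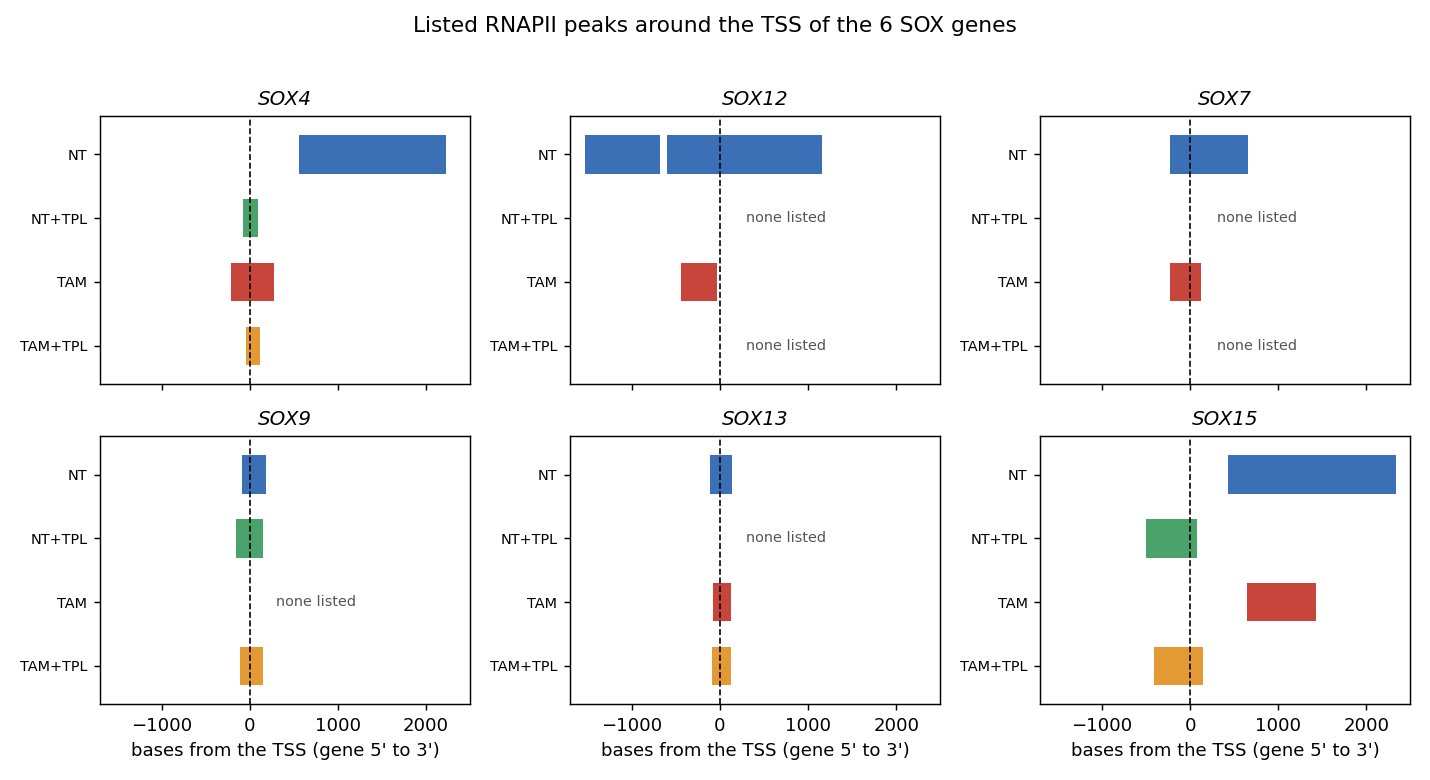
Spans of the listed RNAPII peaks (bars) around the TSS (dashed line at 0) of each SOX gene, in bases along the direction of transcription (horizontal axis), 1 row per list. SOX12 and SOX7 have no peak in either TPL list, and the peaks of SOX15 lie downstream of the TSS with DMSO and over it with TPL.

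SOX12 and SOX7, whose RNA fell with TPL, had peaks in both DMSO lists and none in either TPL list. RNA and peaks did not go together in all genes. SOX4 fell more than SOX7 in NT cells (log2 fold change -2.50 against -2.31), but had a peak over its TSS in both TPL lists. SOX13, whose RNA was higher with TPL, had a peak in NT and none in NT+TPL. At SOX12 the NT list held a peak from -597 to 1154, another from -1533 to -677, and the TAM list a peak from -443 to -37 that ended short of the TSS. These peaks cover all 300 bases of the promoter printed above in NT and 214 in TAM. They also hold a TSS of NRSN2-AS1, a noncoding gene that runs across SOX12 on the other strand, so the RNAPII there cannot be assigned to SOX12 alone. NRSN2-AS1 had 1.58 to 6.96 FPKM and did not pass in either TPL comparison (log2 fold change 0.67, adjusted p = 0.235 in NT and 0.65, adjusted p = 0.265 in TAM). At SOX7 the peak reached from -226 to 655 in the NT list and -225 to 127 in the TAM list. Of all protein-coding genes occupied in NT, 21.9% had no peak over a TSS in NT+TPL, and 19.2% of those occupied in TAM had none in TAM+TPL. The latter share applies to SOX7 and not to SOX12, which was not occupied in TAM by this rule.

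At SOX15 the peak was downstream with DMSO and over the TSS with TPL, in both states. It spanned 427 to 2332 in NT and 641 to 1430 in TAM, leaving the TSS out, and -502 to 80 in NT+TPL and -410 to 150 in TAM+TPL, with all 3 annotated TSSs inside. The NT peak lay at chr17:7491080-7492985 and so reached beyond the 3′ end of the gene at 7491496. Another gene, MPDU1, at 28.5 to 42.7 FPKM, overlaps SOX15. Whether the RNAPII downstream of the TSS belongs to SOX15 alone was not tested. SOX4 had the same order in NT cells, with a peak from 553 to 2228 in NT that left the TSS out and one from -73 to 95 in NT+TPL. The NT peak also holds the TSS of an annotated noncoding gene on the other strand (ENSG00000283480), so the RNAPII there cannot be assigned to SOX4 alone. In TAM cells its peak lay over the TSS without TPL (-218 to 274) as well as with it (-41 to 116). Among all protein-coding genes with a peak within 1000 bases in both lists, the centre was further upstream with TPL in 50.9% of 8191 genes for NT and 48.4% of 7982 for TAM. The median centre lay at 27.5 in NT and 17 in NT+TPL, and at 19 in TAM and 9.5 in TAM+TPL. These shares count a shift of any size, and how many genes went from a peak beside the TSS to one over it was not counted. Of the 300 bases of the SOX4 promoter, the TAM peak covers 268, the NT+TPL peak 123, the TAM+TPL peak 91 and the NT peak none.

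SOX9 was occupied in NT (-90 to 182), NT+TPL (-159 to 145) and TAM+TPL (-108 to 146), and had no peak in TAM, the group with the lowest RNA. Of the protein-coding genes occupied in NT, 11.7% had no peak over a TSS in TAM. SOX13 had a narrow peak over the TSS, 255 bases wide in NT, 206 in TAM and 217 in TAM+TPL, and these cover 166, 130 and 144 of its promoter bases. It had none in NT+TPL, where its RNA was highest in replicate 1. Counting peaks within 1000 bases of a TSS, 6 SOX genes had one in the NT list and 5 in the TAM list, against 3 and 4 in the lists with TPL. By the same rule 53.4 and 50.9% of protein-coding genes had one with DMSO, and 43.4 and 42.7% with TPL.

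Genes known to act with or upstream of the SOX factors were counted by lists, to be read against all tested genes, of which 19.8% fell and 17.2% rose with TPL in NT cells (median log2 fold change 0.09) and 18.6% fell and 14.3% rose in TAM cells (median 0.05). Of 18 genes of β-catenin and TCF/LEF signalling, the pathway that SOX7, SOX9 and SOX13 are known to restrain, 16 were tested. With TPL 7 fell and 1 rose in NT cells, and 7 fell and 2 rose in TAM cells, with a median log2 fold change of -0.79 and -0.56. The share that fell was 43.8% in each state. None passed between TAM and NT with DMSO. LEF1, a DNA-binding partner of β-catenin, fell with log2 fold changes of -2.78 (SE 0.281, adjusted p = 0.000788) in NT and -2.87 (SE 0.282, adjusted p = 0.000810) in TAM cells. TCF7L1, a repressive TCF, fell as well (-2.36, adjusted p = 0.00113, and -2.68, adjusted p = 0.000869), as did the cyclin gene CCND1 (-1.90, adjusted p = 0.000796, and -1.34, adjusted p = 0.00294). LGR5, a receptor for R-spondins and a stem cell marker, rose in both states, from 0 and 0.03 FPKM in NT to 5.96 and 5.66 in NT+TPL and from 0.03 in both TAM replicates to 6.59 and 5.06.

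Of 11 genes, those of the TGF-β pathway, which induces SOX4, and EZH2, a target of SOX4, 3 fell with TPL in each state and none rose, with median log2 fold changes of -0.43 and -0.53. These 27.3% compare with 19.8 and 18.6% of all genes, so the count is not far from that over all genes. The 3 were the receptor TGFBR2 (-1.49, adjusted p = 0.0206 in NT and -1.60, adjusted p = 0.0178 in TAM), SMAD4 (-0.70, adjusted p = 0.0304 and -0.67, adjusted p = 0.0384) and the inhibitor SMAD7 (-1.18, adjusted p = 0.0337 and -1.32, adjusted p = 0.0256). The ligand TGFB1 was higher in TAM than in NT cells with DMSO by 0.77 on the log2 scale (SE 0.167, adjusted p = 0.0413). EZH2 did not pass in any of these comparisons.

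Of 13 Notch and Hedgehog genes, pathways known upstream of SOX9, 9 were tested. In NT cells 2 rose and 2 fell with TPL (median log2 fold change -0.59), and in TAM cells 3 rose and 1 fell (-0.14). Over all genes 17.2% rose and 19.8% fell in NT cells, close to the 22.2% each way here, and 14.3% rose and 18.6% fell in TAM cells. The receptor NOTCH3 rose on the log2 scale by 2.78 (adjusted p = 0.00262) in NT and 4.42 (adjusted p = 0.000821) in TAM cells and the ligand JAG1 by 1.86 (adjusted p = 0.00127) and 1.18 (adjusted p = 0.00693), while the ligand JAG2 fell (-1.51, adjusted p = 0.00104, and -2.05, adjusted p = 0.000504). NOTCH1 had 18.4 and 24.7 FPKM in NT against 17.6 and 10.9 in NT+TPL, and 9.96 and 7.54 FPKM in TAM against 17.5 and 17.0 in TAM+TPL. Like SOX9 it was lowest in TAM cells (log2 fold change against NT -1.28, SE 0.255, adjusted p = 0.0298). It rose with TPL there by 0.93 (SE 0.254) at an adjusted p of 0.0302, while with TPL in NT cells it had -0.61 (adjusted p = 0.0983).

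Cartilage genes that SOX9 activates in chondrocytes were near absent. Of 9, only COL11A2 had enough reads for a test, and it rose with TPL by 1.96 on the log2 scale (adjusted p = 0.00982) in NT and 2.58 (adjusted p = 0.00419) in TAM cells, from at most 0.39 to at most 1.61 FPKM. Of 9 genes of basal or luminal identity, among them SNAI2, the partner of SOX9, 8 were tested. With TPL 6 fell and 1 rose in NT cells and 5 fell in TAM cells, at median log2 fold changes of -1.66 and -1.44, and 3 were lower in TAM than in NT cells with DMSO, where 3.39% of all genes fell. The shares that fell with TPL, 75.0 and 62.5%, are those of a list of 8 genes. TP63, the master factor of basal epithelium, had 13.2 and 23.6 FPKM in NT and 24.2 and 23 in TAM, and at most 0.89 in the TPL libraries (log2 fold change -5.31, adjusted p = 0.000439 in NT and -5.04, adjusted p = 0.000491 in TAM). ELF3, an epithelial factor, fell too (-3.12, adjusted p = 0.00141, and -1.73, adjusted p = 0.0134). SNAI2 itself did not pass, with -0.84 (adjusted p = 0.154) and -0.62 (adjusted p = 0.285). The keratin genes KRT5 and KRT14 were lower in TAM cells with DMSO, at log2 fold changes of -2.18 (adjusted p = 0.000366) and -1.74 (adjusted p = 0.0176), in the libraries in which SOX9 was low. The part of these marker changes in the SOX values was not tested.

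The genes with the pattern most like each SOX gene were taken from 14081 tested genes of at least 1 FPKM on average, by Pearson's r of log2(FPKM + 1) over the 8 libraries. These r describe 4 groups of 2 and carry no p. SOX4 was most like PRR5 (r = 0.998), NXT1 (0.998) and CD58 (0.995), SOX12 like ZNF583 (0.997), TSPAN14 (0.996) and TARS1 (0.994), and SOX7 like MACO1 (0.998), HOXC6 (0.996) and TNFRSF1A (0.996). For SOX9 they were ARHGAP29 (0.977), RAB43 (0.975) and the EGF family ligand EPGN (0.961). ARHGAP29 had 3.75 and 5.49 FPKM in NT against 2.28 and 1.63 in NT+TPL, and 0.75 and 1.28 FPKM in TAM against 1.92 and 1.71 in TAM+TPL, so it too was lowest in TAM without TPL. For SOX13 they were PIGT (0.991), a transcript entry of TTC17 (0.990) and LINC00839 (0.971), and for SOX15 a transcript entry of DPH2 (0.996), OTUD5 (0.975) and SEC31A (0.970).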

How the data were processed

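RNA-Seq was made from 8 cultures, treated with DMSO or 125 nM TPL, and RNAPII ChIP-Seq from 8 samples with 2 inputs. The expected counts and FPKM were made by the authors from poly-A RNA with Bowtie2 alignments and RSEM estimates. They were deposited as 1 file per library, expected counts without normalization and FPKM scaled to transcript length and mapped reads. The strand of counting is not given in the sources used here. The authors' peak lists on hg19 give starts and ends. The labels name MACS 1.4.2. The lists are named as lists of TSSs in peaks, and over 99% of the peaks lie within 1000 bases of a TSS. They are therefore not lists of all RNAPII peaks.

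Genes without a row in a library were taken as 0. Of 23604 genes, 21077 were matched to symbols by gene ID and 2407 by accession. Expected counts were rounded and fitted with edgeR 4.0.16 in R 4.3.3 by its quasi-likelihood test with TMM scaling, after filterByExpr on the 4 groups, with Benjamini-Hochberg adjustment over 16948 genes in 1 fit, without a replicate block. The biological coefficient of variation was 0.315. Alternatives used DESeq2 1.42.0 and limma 3.58.1, on log2(FPKM + 1) and log2(FPKM + 0.1). The fit and the assignment of peaks were run on simulated data to check that the steps work. The simulated counts varied less between replicates than these data, and the simulated peaks were set around known TSSs. These checks therefore give no error rate for the results here. Tables and plots used Python 3.11.15, numpy 2.4.6, pandas 2.3.3 and matplotlib 3.10.9.

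The 6 genes and the lists were chosen with earlier results of these data known. Named genes are the 6, other SOX genes listed, up to 4 genes per list past an adjusted p of 0.05, the 3 most alike per member, and neighbours. Promoters of 3 genes were read from RefSeq.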

Additional observations from a re-analysis of the deposited data

Results flagged for a closer look

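SOX9 was the 1 result of the 6 genes that met a rule for a closer look, because both TPL libraries lay below both DMSO libraries in NT cells and above both in TAM cells. The difference between its TPL effects (TAM minus NT) was 2.95 on the log2 scale (SE 0.702, unadjusted p = 0.00404). With edgeR's quasi-likelihood test the adjusted p was 0.223, so the difference does not pass 0.05. It lay between 0.000547 with DESeq2 and 0.377 with the replicate block over the alternatives, and between 0.147 and 0.577 with a library left out. Of all tested genes 0.165% passed 0.05 in this test. The direction of the value was the same under every alternative and with every library left out, from 2.33 to 4.00.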

How the results depend on the processing

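With 2 replicates per group the adjusted p of SOX9, SOX13, SOX15 and of the differences between states moved across 0.05 with the setting, while the falls of SOX4, SOX12 and SOX7 with TPL passed it in every run. With a library left out, its group holds 1 sample that is assumed to vary like the others. The peak lists hold no depth, so a missing peak was not detectable at their thresholds.

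Of the 6 genes, those past an adjusted p of 0.05 with TPL in NT cells numbered 5, and 2 by the strict thresholds, with 3 to 5 when a library was left out (3 without either NT replicate or either TAM+TPL replicate). In TAM cells they numbered 3, but 5 with DESeq2, upper quartile normalization, at least 10 counts in every library or only the 2 groups compared, and 3 to 5 with a library left out (5 without either NT+TPL replicate). Between TAM and NT with DMSO they numbered 1, but 3 with DESeq2, at least 10 counts or only the 2 groups compared, 2 with GAPDH scaling and 0 by the strict thresholds. With a library left out they numbered 0 to 3 (0 without either NT replicate, TAM replicate 1 or TAM+TPL replicate 1, and 3 without either NT+TPL replicate). Between the states with TPL they numbered 0, but 1 with DESeq2, GAPDH scaling or at least 10 counts, and 0 to 2 with a library left out (2 without NT+TPL replicate 2). For the difference of the TPL effects DESeq2 called 1 and edgeR 0, with 2 at an unadjusted p under 0.05. In the TAM list, 5 SOX genes had a peak within 1000 bases of a TSS, against 3 with a TSS inside one.

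Values near 0 changed sign. Between TAM and NT with DMSO, SOX13 was -0.32 with GAPDH scaling, SOX15 was 0.01 with DESeq2, with its size factors in edgeR and with only the 2 groups compared, 0.02 with upper quartile normalization and -0.08 to 0.06 with a library left out, where SOX4 was -0.14 to 0.06. Between the states with TPL, SOX9 was 0.01 with DESeq2 and with its size factors, 0.04 with upper quartile normalization, 0.06 with crossed pairing, 0.03 and 0.04 with limma on log2(FPKM + 1) and log2(FPKM + 0.1), and -0.35 to 0.47 with a library left out, where SOX7 was -0.71 to 0.24, SOX13 -0.40 to 0.27 and SOX15 -0.66 to 0.36, all highest without NT+TPL replicate 1. For the difference of the TPL effects, SOX12 was 0.20 with GAPDH scaling, 0.28 and 0.09 with limma at the pseudocounts 1 and 0.1, and -0.41 to 0.42 with a library left out, where SOX13 was -0.59 to 0.08 and SOX15 -0.68 to 0.35. The causes were not tested. Scaling moved the median change of all genes with TPL (log2) from 0.09 to -0.26 (GAPDH) or 0.31 (upper quartile) in NT and from 0.05 to -0.07 or 0.29 in TAM cells. With GAPDH scaling the median also moved from -0.03 to -0.50 between TAM and NT with DMSO. For the difference of the TPL effects it moved from -0.02 to 0.22.

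The deviations of libraries with the same replicate number correlated between groups with r from -0.135 to 0.0501, so no strong shared deviation was seen. Whether cultures with the same number were handled together is not given, and these r cannot decide it. With the replicate block, 4 SOX genes passed with TPL in NT, 4 in TAM, 1 between TAM and NT with DMSO and 0 in the other comparisons. With the NT+TPL numbers crossed, a pairing chosen after seeing the data, these were 4, 3, 1 and 0.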

Other observations

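The genes beside the SOX genes did not share their values in several places. SOX13 and its neighbour ETNK2, a kinase of ethanolamine metabolism 3319 bases away, differed between the states: ETNK2 had 18.9 and 19.6 FPKM in NT and 0.52 and 0.50 in TAM (log2 fold change -5.24, SE 0.374, adjusted p = 0.000573 by edgeR), where SOX13 had 0.16. CD68, a lysosomal membrane protein gene 6067 bases from SOX15, had 47.2 and 47.1 FPKM in NT and 301 and 281 in TAM (2.65, SE 0.142, adjusted p = 0.000174), where SOX15 had -0.01. FXR2, nearer to SOX15 at 1136 bases, was lower with TPL as SOX15 was. It had -0.85 (adjusted p = 0.0246) in NT and -0.54 (adjusted p = 0.103) in TAM cells, against -0.66 and -0.91 for SOX15. MPDU1, which overlaps SOX15, had 0.45 (adjusted p = 0.0374) and -0.08 (adjusted p = 0.682) with TPL in that order. NRSN2, beside SOX12, was lower in TAM cells (-1.71, adjusted p = 0.0344). ZCCHC3, on its other side, did not pass in either TPL comparison (0.18, adjusted p = 0.414 in NT and 0.34, adjusted p = 0.153 in TAM), where SOX12 fell.

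PINX1, which has an annotated form across SOX7, fell with TPL as SOX7 did, with -1.72 (adjusted p = 0.00488) in NT and -1.70 (adjusted p = 0.00565) in TAM cells on the log2 scale. Between TAM and NT with DMSO it had -0.09 (adjusted p = 0.915), where SOX7 had 0.86. SOX9-AS1, a noncoding gene beside SOX9, had 1.07 and 1.05 FPKM in NT against 1.52 and 2.75 in NT+TPL, and 0.73 and 0.75 FPKM in TAM against 2.59 and 2.29 in TAM+TPL. It rose with TPL in TAM cells by 1.68 on the log2 scale (SE 0.476, adjusted p = 0.0343) and had 1.02 (adjusted p = 0.129) in NT cells, where SOX9 fell. The strand used in counting is not given, so reads of overlapping genes cannot be told apart.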
